A study of Mus musculus with 8 samples.

Results

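The mouse genome annotation (GENCODE M21, genome build GRCm38) held 53 protein-coding genes named as DEAD-box and DEAH-box helicases, out of 21951 protein-coding genes. They were taken by name alone, as the genes whose symbol is Ddx or Dhx followed by a digit. Of these 53, 37 were Ddx genes and 16 were Dhx genes. They included Ddx5, whose protein was immunoprecipitated here, and its closest relative Ddx17. RNA bound by DDX5 was mapped by eCLIPseq, in which UV light links a protein to the RNA it touches. The protein is then immunoprecipitated (IP), and its RNA is sequenced together with a size-matched input that skipped this step. Peaks that overlapped the helicase genes on their own strand were counted in 3 deposited lists.

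All material was intestinal epithelial cells (IECs) of C57BL/6 mice, fractionated with EDTA and labelled wild type. The small intestine came from 8-week-old female mice, with 2 CLIP and 2 input samples that the authors merged into 1 list. The colon had a pair of groups named mAb and rAb, each with 1 CLIP and 1 input sample. What the names mean was not given in the sources used here, and the DDX5 antibody had the same catalogue number in all CLIP samples. The growth text of the colon samples named Apcfl/+ CDX2Cre mice of 120 days, in which Cre is driven by CDX2 and an allele of Apc is floxed, against their wild-type label. The study's methods described wild-type females younger than 120 days, and the colon labels gave no sex.

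DEAD-box and DEAH-box proteins use ATP to open RNA duplexes, to strip proteins from RNA or to clamp onto it. DEAD-box proteins mostly open short duplexes locally, and DEAH-box proteins move along a strand. Between them they serve nearly every step in the life of an RNA, from splicing and ribosome assembly to export, translation, decay and the sensing of viral RNA. DDX5 and DDX17 are nuclear proteins that act in splicing and transcription.

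The lists differed in kind. Those of the colon held every called peak, enriched or not, 16455 under the name mAb and 9146 under rAb. That of the small intestine held 1278 peaks, every one of them above 3 for both the log2 fold of IP over input and the −log10 p, the cutoff of the study. A peak past this cutoff is called a site here. A weaker helicase peak in the small intestine would therefore not be listed. With 1 list per group there was no spread over samples, so comparisons of lists are descriptions, and tissue, protocol (paired-end reads in the small intestine, single-end in the colon) and peak selection cannot be told apart. Colon values could be traced to whole reads, and the depth of the small intestine libraries is unknown. All 6 epithelial markers had called peaks in each colon list and 4 of 6 in the small intestine. Of 8 enterocyte markers 6 were found, in the small intestine alone. Of 6 colon markers 5 had mAb peaks and 1 had rAb peaks. None of 5 T cell markers had a peak anywhere. Genes of fibroblasts and muscle had 80 mAb peaks (4 of 4 genes), 64 rAb peaks (3 of 4) and none in the small intestine, and the part of such cells in the helicase peaks was not tested.

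Called peaks lay on 29 of the 53 helicase genes in at least 1 list, and all 29 had a colon peak. Over all protein-coding genes 5837 of 21951 had a colon peak. In the mAb list 27 genes had 116 peaks, in that of rAb 18 genes had 64 peaks, and in the small intestine Ddx3x alone had 2. The share of helicase genes with a peak was thus 50.9% with mAb, where 22.6% of all protein-coding genes had one, and 34.0% with rAb, against 15.6%. In the small intestine it was 1.89%, against 2.0% of all protein-coding genes. Of these 29 genes 16 (55.2%) had peaks in both colon lists, 11 (37.9%) had mAb peaks without rAb peaks, and Dhx33 and Dhx37 (6.9%) had rAb peaks without mAb peaks. Over all protein-coding genes with a colon peak the shares were 43.4%, 41.5% and 15.1%. Peaks were found on 18 of 37 Ddx genes and 11 of 16 Dhx genes, and the difference between them was not tested. The 24 genes with no peak in any list were Ddx4, Ddx11, Ddx18, Ddx19b, Ddx20, Ddx25, Ddx28, Ddx31, Ddx43, Ddx47, Ddx49, Ddx50, Ddx51, Ddx52, Ddx55, Ddx56, Ddx58, Ddx59, Ddx60, Dhx29, Dhx34, Dhx35, Dhx57 and Dhx58.

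Helicase peaks of the colon were mostly called at little enrichment over input. None was a site (0 of 116 with mAb and 0 of 64 with rAb), where sites were 1.22% and 1.99% of all peaks of these lists. At such low shares, counts of 0 among so few peaks are not read as a difference from all peaks. Both small intestine peaks were sites, as was every peak of that list (100%). The median log2 fold of the helicase peaks was 0.89 with mAb (range −1.55 to 3.15), beside 1.15 over all peaks of the list. With rAb it was 1.65 (range −0.57 to 4.24), beside 2.24. Log2 folds below 0, meaning fewer IP than input reads after scaling for depth, made up 23.3% of mAb helicase peaks (16.1% of all mAb peaks) and 12.5% of rAb helicase peaks (7.93% of all). The deposited −log10 p was 0 at each of these, so their depletion was not tested.

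**Figure D1:**
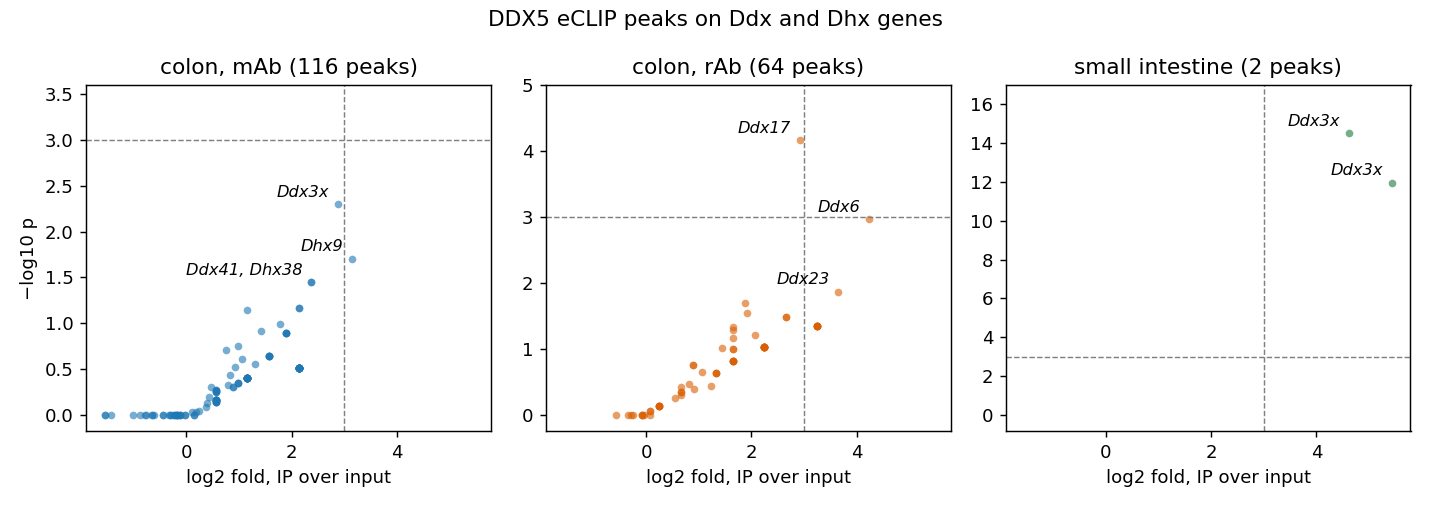
Log2 fold of IP over input (horizontal) against the deposited −log10 p (vertical, with a different range in each panel) for every called peak on a Ddx or Dhx gene in the 3 lists, each point being 1 peak and the dashed lines the cutoff of 3. The 2 Ddx3x peaks of the small intestine lie past both lines, and no colon peak does, the rAb peak on Ddx17 (2.92 and 4.17) and that on Ddx6 (4.24 and 2.96) each missing 1 of them.

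Ddx3x encodes an X-linked DEAD-box protein that helps ribosomes to start on structured 5′ leaders. It was the helicase gene with peaks in all 3 lists. Both of its small intestine sites lay in the first intron of the principal transcript (ENSMUST00000000804.6, 17 exons, plus strand), and no other annotated gene overlapped them on that strand. The site at chrX:13281497-13281560 had a log2 fold of 4.62, at a −log10 p of 14.5. The other, at chrX:13281561-13281590, directly abutted it and had a log2 fold of 5.44, at a −log10 p of 12. Among the 1278 small intestine sites the folds ranked 498 and 218 from the top, and the −log10 p values 573 and 744.

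The colon peaks of this intron overlapped the small intestine sites in part, the rAb peak both of them and the mAb peak only the upstream site. The mAb peak at chrX:13281485-13281551 had a log2 fold of 2.89 (95% interval 0.66 to 6.12), from 10 IP and 2 input reads. Intervals of folds are exact binomial (Clopper-Pearson) and cover counting error only. Its −log10 p of 2.30 was the highest of any mAb helicase peak. The rAb peak at chrX:13281536-13281582 had a log2 fold of 2.24 (95% interval −0.89 to 5.82), from 3 IP and 2 input reads. Neither passed Fisher's exact test of IP against input reads with Benjamini-Hochberg adjustment over its whole list (adjusted p = 0.131 and 0.156).

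The 106 bases covered in any list are shown because they hold all sites found on Ddx and Dhx genes. Capitals mark the 16 bases that peaks of all 3 lists covered (plus strand, GRCm38 reference, chrX:13281485-13281590):
Ddx3x intron 1: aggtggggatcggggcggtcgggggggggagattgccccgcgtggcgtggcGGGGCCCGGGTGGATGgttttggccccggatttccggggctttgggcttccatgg

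This stretch ran from 328 to 433 bases after the end of exon 1, in an intron of 3020 bases. G made up 50.9% of it and G or C together 72.6%, against 49.1% G or C in the whole intron. None of its bases was masked as a repeat, and no near-identical copy of the peaks in it was found elsewhere in the genome. The best ungapped match of these peaks in Ddx3y, the Y-linked relative, had 47.8% to 56.7% identity.

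Many small intestine sites lay in such a position. Of 426 intronic sites placed on a principal transcript, 319 (74.9%) on 151 genes were in a first intron, at a median of 368 bases after exon 1 (quartiles 125 and 947). The Ddx3x sites began 340 and 404 bases after exon 1. Their G or C contents of 78.1% and 63.3% lay on either side of the median of 73.2% for first-intron sites, whereas the median of sites in coding sequence was 52.8%. In the colon, first introns held 41.6% of the placed intronic mAb peaks and 35.0% of those with rAb, at medians of 5960 and 6500.5 bases after exon 1. The share of first-intron peaks within 500 bases of exon 1 was 61.1% in the small intestine, 20.3% with mAb and 14.4% with rAb. The colon values here cover every called peak and those of the small intestine only sites, so the lists were selected differently. The colon peaks on Ddx3x intron 1 were among these near ones.

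Elsewhere on Ddx3x the folds were lower. Of its 9 mAb peaks, 6 lay in coding sequence and 2 in the 3′ UTR. Their log2 folds were −1.44 in exon 4, −1.02 in exon 5, −1.55 in exons 8 and 16, 0.98 in exon 10 (12 IP and 9 input reads) and 0.15 in exon 15, with 1.89 and −0.17 in the 3′ UTR. Over all 9 peaks the median was −0.17, and 5 were below 0. The 8 rAb peaks had a median of 0.45, with 1 below 0. The highest −log10 p of the gene with rAb, 1.54, belonged to a coding peak in exon 11 with a log2 fold of 1.92. In each list the highest fold of the gene was thus in intron 1. Unlike that stretch, exonic peaks had near relatives. Near-identical copies elsewhere in the genome were found for 4 of the mAb peaks and 3 of the rAb peaks, and identity to Ddx3y reached 92.6% at the exon 15 peak. The origin of reads at such peaks is uncertain.

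**Figure D2:**
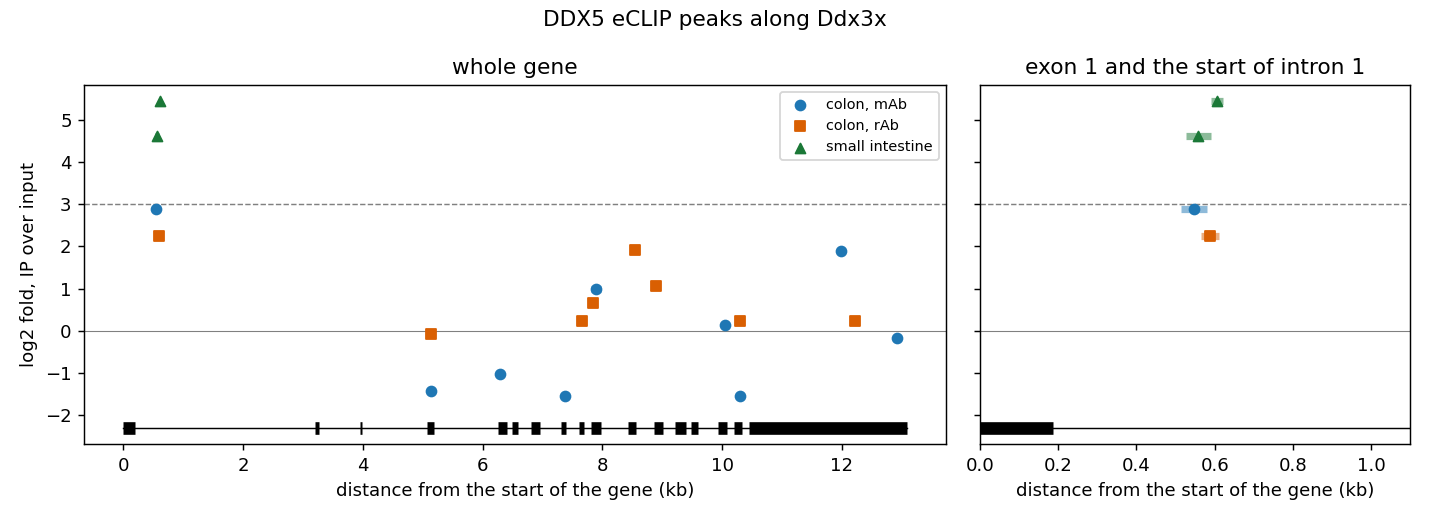
Log2 fold of IP over input (vertical) of each called peak along Ddx3x (horizontal, kilobases from the start of the gene), the whole gene and the region of exon 1 and intron 1, with black boxes for exons of the principal transcript and the cutoff of 3 dashed. The peaks of all 3 lists meet in the first intron, where the small intestine sites had log2 folds of 4.62 and 5.44, and the colon peaks over later exons lay at 1.92 or lower.

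Ddx3y, the Y-linked relative of Ddx3x, had 3 called mAb peaks, all in coding sequence, and none in the other lists. Abutting peaks of 4 and 12 bases in exon 4 had log2 folds of 2.15, each from 3 IP reads over 1 input read. A peak of 51 bases in exon 5 had 4 IP reads over 3 and a log2 fold of 0.98, and it differed from its best ungapped match in Ddx3x at 9 bases. Of the other Y-linked genes looked at, Uty had 1 mAb peak and Eif2s3y 1 rAb peak, each with 3 IP reads, and Kdm5d had none. No Y-linked gene of these had a small intestine site. Xist, transcribed from the inactive X chromosome of females, had 12 small intestine sites and no colon peak. These counts are set beside the sex that the methods gave, and the sex of the colon mice was not tested.

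Ddx5, the gene of the immunoprecipitated protein, had 14 called peaks with mAb, 6 with rAb and no site in the small intestine. The mAb log2 folds ran from −0.88 to 1.89 around a median of 0.51, with 5 below 0 and a best −log10 p of 0.92. Those of rAb ran from −0.05 to 2.65 around a median of 0.73, with 1 below 0 and a best −log10 p of 1.48. No Ddx5 peak was enriched after adjustment (Fisher's exact test). The mAb peaks in exon 1 (−0.88), exon 6 (−0.11), exon 10 (−0.24) and exon 12 (−0.66) had near-identical copies elsewhere in the genome. So did the rAb peak in exon 11 (0.65), and the origin of reads at such peaks is uncertain.

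All 6 rAb peaks of Ddx5 overlapped a mAb peak. In exon 1 both folds were the lowest of the gene (−0.88 with mAb and −0.05 with rAb). In exon 2 they were 0.56 and 0.24, and in exon 11 they were 1.89 and 0.65. In the 3′ UTR of exon 13 an upstream peak had 0.46 and 0.81, and a downstream one 0.39 and 1.65.

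The remaining overlap was in intron 1, as on Ddx3x. The mAb log2 fold there was 1.41 (95% interval −0.32 to 3.34, 9 IP and 5 input reads). That of rAb was 2.65 (95% interval −0.15 to 6.12, 4 IP and 2 input reads), the highest rAb fold of the gene. The bases, chosen after the values were seen, are shown for comparison with Ddx3x, with capitals for the part covered in both colon lists (minus strand, GRCm38 reference, chr11:106788010-106788071):
Ddx5 intron 1: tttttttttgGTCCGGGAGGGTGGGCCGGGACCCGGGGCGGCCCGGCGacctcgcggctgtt

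The peaks began 202 and 212 bases after exon 1. G made up 43.5% of the stretch and G or C 71.0%, and 25.8% of its bases were masked as a repeat. Helicase peaks within 500 bases of exon 1 in a first intron were found on Ddx3x, Ddx5 and Dhx15 with mAb (3 of 11 intronic peaks) and on Ddx3x and Ddx5 with rAb (2 of 8). Over all protein-coding genes, 332 of 4272 intronic mAb peaks and 75 of 1631 with rAb lay there. With so few helicase peaks, no difference is read from these counts. The peak on Dhx15, whose protein releases the spliced-out intron from the spliceosome, covered 10 bases and rested on 3 IP reads over 1.

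Ddx17 had the most called peaks of any helicase gene in both colon lists, 19 with mAb and 16 with rAb, and no site in the small intestine. Coding sequence held 12 and 11 of them and 3′ UTRs of its transcripts 5 and 4. The mAb log2 folds ran from −0.61 to 2.15 around a median of 0.37, with 7 below 0. Those of rAb ran from −0.57 to 2.92 around a median of 0.77, with 2 below 0. Of each list's peaks 12 overlapped a peak of the other. The rAb fold was the lower of the pair at 2 of these places, exon 2 (0.10 with mAb and −0.57 with rAb) and the 5′ UTR (0.24 and 0.07). The best ungapped match of Ddx17 peaks in Ddx5 had a median identity of 57.1% over 31 peaks, and none was without a mismatch. It reached 91.3%, with 2 mismatches, at the 23-base mAb peak in exon 5, where the origin of reads is less certain.

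The colon helicase peak with the highest −log10 p lay in the 3′ UTR in the last exon of Ddx17, at chr15:79528872-79528948. With rAb it had a log2 fold of 2.92 (95% interval 1.31 to 4.77), under the cutoff of 3. The reads were 12 in the IP and 5 in the input, and the −log10 p was 4.17. It was enriched after adjustment over the list (Fisher's exact test, adjusted p = 0.00192). The mAb peak over these bases, at chr15:79528823-79528950, had a log2 fold of 1.15 (95% interval −0.10 to 2.46) from 15 IP and 10 input reads and did not pass (Fisher's exact test, adjusted p = 0.602). The intervals of these folds overlap. The next peak toward the end of the gene had log2 folds of −0.21 with mAb and 0.07 with rAb, the latter from 18 IP reads. No traced rAb helicase peak had more, and the 5′ UTR peak of Ddx17 had as many.

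**Figure D3:**
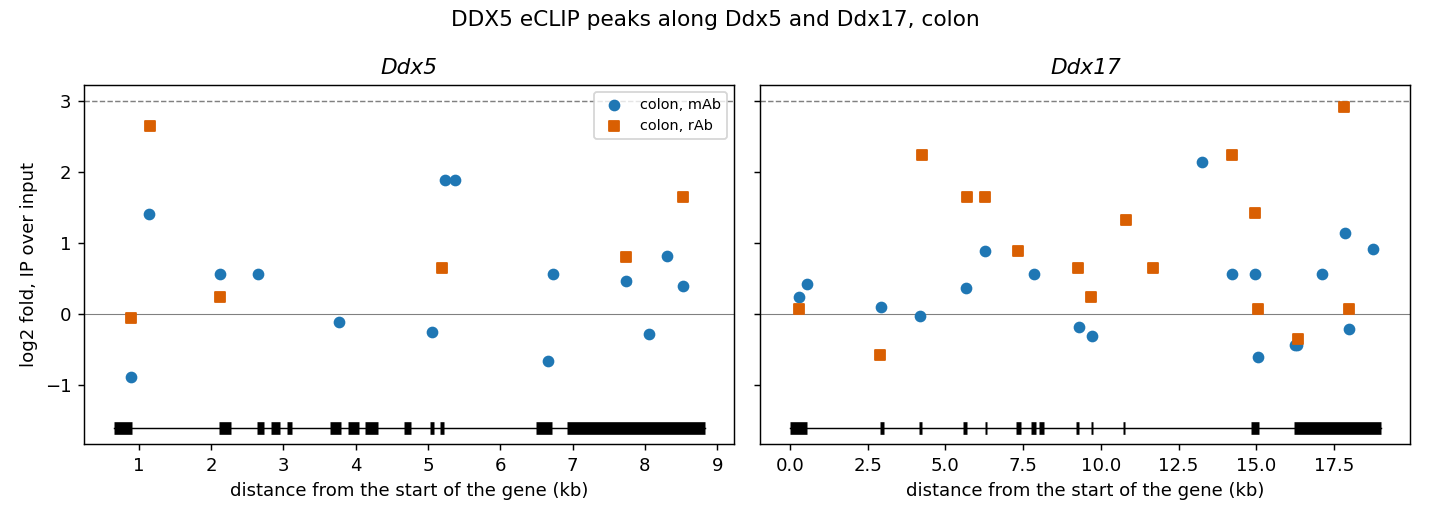
Log2 fold of IP over input (vertical) of each called colon peak along Ddx5 and Ddx17 (horizontal, kilobases from the start of the gene), with black boxes for exons of the principal transcript and the cutoff of 3 dashed. On Ddx5 the folds lay between −0.88 and 2.65 and on Ddx17 between −0.61 and 2.92, the highest being the rAb peak in the last exon of Ddx17.

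Counts by role are set beside all protein-coding genes, of which 22.6% had a mAb peak and 15.6% a rAb peak. The median log2 folds over all peaks were 1.15 and 2.24. No role was tested against these values or against another role. Of 13 helicases of splicing, the group that includes Ddx5 and Ddx17, 12 had a mAb peak (65 peaks, median log2 fold 0.56) and 7 a rAb peak (34 peaks, median 0.89). Ddx23, whose protein helps to hand the 5′ splice site over to U6, had the highest fold of the group, 3.65 with rAb in exon 6 (95% interval 0.32 to 9.28, 4 IP reads over 1). It did not pass after adjustment (Fisher's exact test, adjusted p = 0.0972), and no mAb peak overlapped it. Ddx41, a late splicing factor also linked to the sensing of DNA, and Dhx38, which remodels the spliceosome between its catalytic steps, were highest with mAb. Each reached 2.37, from 7 IP reads over 2. The Dhx38 peak in exon 3 had a rAb counterpart at 2.24. On Ddx41 the peak seen in both lists was in exon 6, at 1.79 with mAb and 2.65 with rAb.

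Ddx39b, whose protein acts in spliceosome assembly and mRNA export, had 10 mAb peaks and 6 rAb peaks. Their median log2 folds were 0.37 and 1.27, and the best −log10 p was 1.70, at a rAb peak in exon 2 with a log2 fold of 1.88. In each list 2 of its peaks lay on small nucleolar RNAs (snoRNAs) inside its introns. On Gm25128 the log2 folds were 0.74 with mAb (17 IP reads, the most of any traced mAb helicase peak) and 0.89 with rAb. On Gm22589 they were 0.19 and −0.25. Reads of a snoRNA and of the intron that holds it cannot be told apart.

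Of 16 helicases of ribosome biogenesis, 5 had a mAb peak (6 peaks, median 1.1) and 5 a rAb peak (9 peaks, median 2.24), of which Ddx24, Ddx27 and Ddx54 had both. Ddx54, Dhx33 and Dhx37, which act in the processing of ribosomal RNA and the assembly of its subunits, reached 3.24 with rAb. Each of these peaks rested on 3 IP reads over 1, the commonest pair of counts in the colon lists. Those of Dhx37 lay wholly in a masked repeat in intron 16. The gene of this group with overlapping peaks in both lists was Ddx24, named after its values were seen, at 1.05 with mAb and 2.07 with rAb in exon 2.

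Of 7 helicases of translation, decay and RNP granules, 5 had a mAb peak (28 peaks, median 1.06) and 3 a rAb peak (15 peaks, median 1.65), Ddx3x among them. Ddx6, an activator of mRNA decapping found in P bodies, had the highest colon fold of any helicase gene. Its rAb peak in the 3′ UTR at chr9:44639351-44639425 had a log2 fold of 4.24 (95% interval 1.20 to 9.76, 6 IP reads over 1), and its −log10 p of 2.96 was just under the cutoff. It was enriched after adjustment (Fisher's exact test, adjusted p = 0.0202), although 1 near-identical copy of its bases was found elsewhere in the genome. The mAb peak over these bases had a log2 fold of 1.89 from 5 IP reads over 2. All 4 rAb peaks of Ddx6 and 7 of its 10 mAb peaks lay in the 3′ UTR. Dhx36, whose protein unwinds G-quadruplexes, had overlapping peaks in intron 15 at 2.15 with mAb and 3.24 with rAb, each from 3 IP reads over 1. Those bases were wholly masked as a repeat, and the rAb peak had 12 other copies in the genome.

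Of 4 helicases of export, 2 had mAb peaks (4 peaks, highest log2 fold 2.15) and none had rAb peaks. A peak on Ddx19a, which remodels mRNA at the nuclear pore, matched its relative Ddx19b with 1 mismatch. None of the 3 helicases of innate RNA sensing, Ddx58, Ddx60 and Dhx58, had a called peak. Of 2 mitochondrial helicases, Dhx30, which serves the mitochondrial ribosome, had 1 mAb peak at 1.15 and 2 rAb peaks at 2.24 and 3.24, the higher wholly in a masked repeat of intron 6.

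Among the 8 other members, Dhx9, a nuclear helicase that unwinds long duplexes, had 7 mAb peaks, all in coding sequence, and 3 rAb peaks. Its peak in exon 17 had the highest fold of all mAb helicase peaks, 3.15 (95% interval 0.11 to 8.67, 6 IP reads over 1), with a −log10 p of 1.70. It did not pass after adjustment (Fisher's exact test, adjusted p = 0.325), and no rAb peak overlapped it. After Dhx9, Ddx3x, Ddx41 and Dhx38, the best mAb fold of the next 12 genes was tied at 2.15. These were Ddx3y, Ddx6, Ddx17, Ddx19a, Ddx23, Ddx27, Ddx42, Dhx8, Dhx15, Dhx32, Dhx36 and Dhx40.

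**Figure D4:**
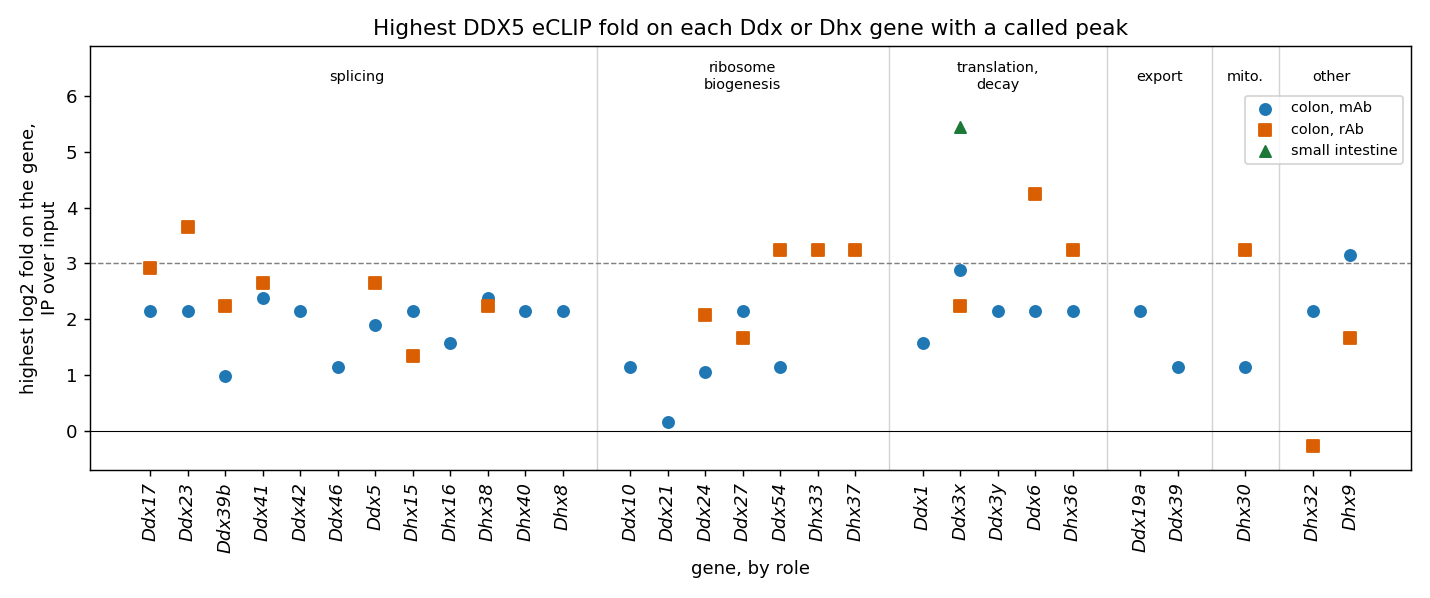
Highest log2 fold of IP over input on each of the 29 Ddx and Dhx genes with a called peak, by list and grouped by role, with the cutoff of 3 marked. Ddx3x in the small intestine stands at 5.44, and the colon values run from −0.28 to 4.24.

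The bases of 2 high-fold coding peaks of the colon, chosen after the values were seen, are shown beside the stretches within intron 1 of Ddx3x and Ddx5. Both are on the minus strand of the GRCm38 reference, with no part in capitals:
Dhx9 exon 17, mAb, chr1:153464866-153464945: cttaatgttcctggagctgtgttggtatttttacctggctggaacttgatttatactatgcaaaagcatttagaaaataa
Ddx23 exon 6, rAb, chr15:98651948-98652013: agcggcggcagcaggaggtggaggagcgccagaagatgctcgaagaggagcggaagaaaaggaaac

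G or C made up 33.8% of the Dhx9 bases and G alone 20%. The Ddx23 bases held 60.6% G or C and were rich in purines, with 34.8% A and 43.9% G. That share of G was close to the 43.5% of the Ddx5 stretch. Over all helicase peaks the median G or C content was 53.1% with mAb and 54.0% with rAb.

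Regions used the exons of every annotated transcript. Some exonic peaks on Ddx5, Ddx17 and Ddx39b thus lay in introns of the principal transcript. By region, 105 of 116 mAb helicase peaks touched an exon (90.5%, exact 95% interval 83.7% to 95.2%), beside 73.1% of all mAb peaks on protein-coding genes. For rAb it was 56 of 64 (87.5%, 76.8% to 94.4%), beside 81.4%. Exons made up 19.3% of the length of the helicase genes with a mAb peak and 28.2% of those with a rAb peak. Coding sequence held 68.1% of the mAb helicase peaks and 62.5% of those with rAb, beside 51.4% and 57.7% over all protein-coding genes. The 3′ UTR held 19.0% and 18.8%, beside 12.5% and 14.4%. These differences were not tested. In the small intestine neither helicase peak touched an exon, where 58.3% of all peaks on protein-coding genes did. Peaks of a gene are not independent of each other, which these intervals leave out.

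**Figure D5:**
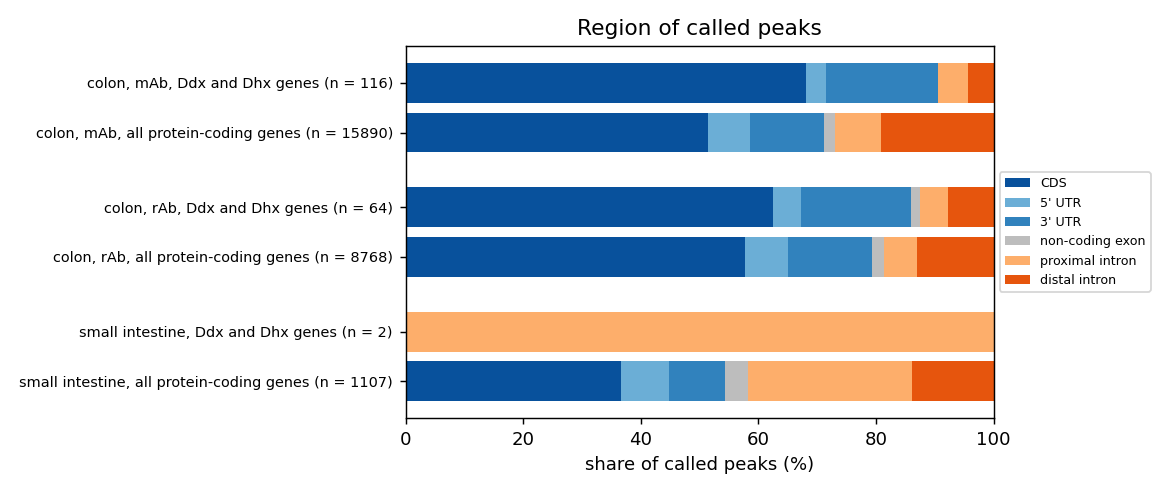
Share of called peaks in percent by region of the gene, for Ddx and Dhx genes and for all protein-coding genes in each list, proximal introns being intronic bases within 500 of an exon. In the colon 90.5% (mAb) and 87.5% (rAb) of the helicase peaks are exonic, and in the small intestine both are in a proximal intron.

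The colon lists shared part of their helicase peaks. Of those with mAb 35 of 116 (30.2%) overlapped a rAb helicase peak by at least 1 base, and of those with rAb 36 of 64 (56.3%) overlapped a mAb one, on 12 genes. Over all peaks on protein-coding genes the shares were 17% with mAb and 30.3% with rAb, and this difference was not tested. Among the 36 pairs this made, the log2 fold was above 0 in both lists in 22, below 0 in both in 5 and of opposite sign in 9. It was above 2 in both in 3 pairs, in Ddx3x intron 1, Dhx36 intron 15 and Dhx38 exon 3. The rAb fold was the higher in 24 pairs, and the median fold over all peaks was also higher with rAb.

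Few reads stood behind these values. Helicase peaks had a median of 4 IP reads with mAb (86 traced peaks) and 3 with rAb (55 traced peaks), beside 3 over all peaks of each list. The fewest IP reads at any traced site of a colon list was 10 with mAb and 7 with rAb. Of the traced helicase peaks, 7 reached that number with mAb, on Ddx3x, Ddx5, Ddx17 and Ddx39b, and 8 with rAb, on Ddx6, Ddx17 and Ddx39b. Their highest folds were 2.89 and 2.92. The other traced helicase peaks had fewer IP reads than any traced site of their list. Among them was the rAb peak on Ddx6, enriched after adjustment from 6 IP reads (Fisher's exact test, adjusted p = 0.0202). Whether peaks with so few reads could have become sites was not tested. Fisher's exact test with adjustment over the list called 0 of 116 mAb helicase peaks enriched, beside 2.92% of all peaks, and 2 of 64 rAb ones (3.13%), beside 6.17%. At an unadjusted p under 0.05 it called 4 with mAb (3.45%, beside 9.27% of all peaks) and 14 with rAb (21.9%, beside 45.3%), in each list a lower share than over all peaks. With rAb the commonest pair, 3 IP reads over 1 input read, itself gave p = 0.0459 (Fisher's exact test, unadjusted). Of the 14 rAb calls, 6 were such pairs. With mAb this pair gave p = 0.310 (Fisher's exact test, unadjusted). Traced rAb helicase peaks had a median of 4 input reads, beside 2 over all rAb peaks, and the part of this in the lower share was not tested. Fisher's exact test here compares the reads of an IP library with those of its input and not conditions.

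For RNA helicases without a Ddx or Dhx name, a list of 21 genes had mAb peaks on 7 and rAb peaks on 6 in the colon, and no site. Over all protein-coding genes 22.6% had a mAb peak and 15.6% a rAb peak. In the small intestine Eif4a1, which encodes the DEAD-box subunit of the eIF4F cap complex, had 7 sites with log2 folds up to 5.77, and the other genes of the list had none. Its sites overlapped no other gene. The colon peaks of Eif4a1 all lay on snoRNAs inside it, and the strongest had log2 folds of 2.06 with mAb and 2.61 with rAb. The −log10 p values there, 22.0 and 33.2, were above that of any Ddx or Dhx peak in the colon. With 1 gene of this list and 1 of the 53 Ddx and Dhx genes holding sites in the small intestine, nothing is read from which genes they were.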

How the data were processed

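The deposited values were, for each peak, a log2 fold of IP over size-matched input and a −log10 p, which the authors capped at 400. Per the labels, reads were processed with cutadapt 1.9.1, STAR 2.4.0i and SAMtools 1.4.1 on mm10 (GRCm38). The authors called peaks with CLIPper and merged the small intestine replicates by IDR, and names of the colon lists mark replicates 1 and 2 as merged. A further list could not be tied to a sample and was left out.

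Members, lists and tests were chosen with earlier results of these data known. Regions, over all transcripts of a gene, took coding sequence first, then 5′ UTR, 3′ UTR, non-coding exon, intron within 500 bases of an exon, and other intron. Genes named were Ddx5, Ddx17, those with a site or with peaks in all lists, and per list the 5 with the highest fold and the 3 with most peaks, ties included. Colon reads were traced by taking the commonest fold as 3 IP reads over 1 input read, so that input depth was 1.48 (mAb) and 3.15 (rAb) times that of IP. Whole reads met fold and p (within 1%) at 99.2% and 99.6% of the peaks with a −log10 p above 0 and under the cap. An input of 1 may stand for 0. They were compared per peak by Fisher's exact test (two-sided, in its limit for large libraries, or the deposited p where no reads were found), with Benjamini-Hochberg adjustment over each list at 0.05, using scipy 1.17.1. Tracing and test were tested on simulated data. Copies were sought with BLAST+ 2.17.0 (95% identity over 90% of peaks of 20 or more bases). Sequence came from RefSeq's GRCm38, read with samtools 1.23.1. Alternatives covered the cutoff, overlap, adjustment, joining of peaks and repeats.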

Additional observations from a re-analysis of the deposited data

How the results depend on the processing

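Of 75 alternatives tried on 18 results, 63 moved a count by no more than 1.5 times or left a share or median within its error. Some of the 63 could not have moved. A count of 0 stays 0 under a stricter cutoff, a stricter adjustment or fewer peaks. With 1 value per gene, its highest, the median log2 fold of helicase genes was 2.15 (mAb) and 2.65 (rAb). Enriched helicase peaks numbered 4 (mAb, 3.45% beside 9.27% of all peaks) and 14 (rAb, 21.9% beside 45.3%) at an unadjusted p. With rAb they numbered 0 after Bonferroni adjustment, and 1, on Ddx17, with repeats and copies left out, an alternative chosen after seeing the data. A log2 fold cutoff of 1 gave 1 rAb site, on Ddx17. Joined within 10 bases, the Ddx3x sites of the small intestine became 1. With a reciprocal overlap of 50%, 22 mAb and 22 rAb helicase peaks were shared between the colon lists and 0 small intestine sites with rAb. Counting peaks within 50 bases, 2 small intestine sites met a mAb peak. The causes were not tested. Small intestine replicates could not be left out in turn, since the list holds merged values. No paired analysis was possible because each list has 1 value per peak and no result comes from a test over samples.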
